A study of Rattus norvegicus with 12 samples.

Results

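The genes described here encode the constitutive proteasome and its activators. They were taken from the table of raw counts as every row whose symbol was Psma1 to Psma7, Psmb1 to Psmb7, Psmc1 to Psmc6, any Psmd followed by a number, or Psme1 to Psme4. The rule found 37 genes among 31177 rows, and all 37 passed the filter on low counts, as did 18850 genes in all. They comprised 6 alpha ring subunits, 4 structural and 3 catalytic beta subunits of the 20S core, 6 ATPases and 11 non-ATPase subunits of the 19S cap, 3 assembly chaperones of the cap (Psmd5, Psmd9 and Psmd10) and 4 activators (Psme1 to Psme4). Psma3, a further alpha subunit, was not analysed here. The genes were measured by RNA-seq of brain tissue in 12 libraries, 4 from a control group labelled Sham, 4 from an Alzheimer's disease model (AD) and 4 from the same model on a high-fat diet (AD-HFD). Strain, age, sex, brain region, time on the diet and the method by which the AD model was made are not given in the labels, and a diet group without the AD model was not analysed here. Although the titles call the animals mice, the organism field names the rat and the gene identifiers are rat Ensembl identifiers, so rat symbols are used. The labels do not say that each library came from its own animal, so the p-values measure the spread between these libraries, which may be technical.

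The proteasome degrades proteins marked with ubiquitin. Its 20S core is a barrel of stacked alpha and beta rings, and the proteolytic sites sit inside the beta rings. The 19S cap binds ubiquitin chains, removes them, and uses a ring of ATPases to unfold the substrate and feed it into the core. Other activators can replace the 19S cap: PA28 alpha and beta (Psme1 and Psme2) form an 11S ring on the core and are induced by interferon gamma, PA28 gamma (Psme3) is nuclear, and PA200 (Psme4) is a single large nuclear protein. In cells exposed to interferon the catalytic subunits Psmb5, Psmb6 and Psmb7 are replaced during assembly by Psmb8, Psmb9 and Psmb10, which makes the immunoproteasome. When the proteasome is inhibited, the transcription factor NFE2L1 raises many proteasome genes together. In the brain, aggregates of tau and amyloid are studied as both substrates and inhibitors of this system.

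Levels are given in CPM, counts per mega count of the library size after TMM scaling, and differences as log2 fold changes with their standard errors from the quasi-likelihood test of edgeR. The p-values were adjusted by the Benjamini-Hochberg method over all 18850 genes, and a gene was called at an adjusted p under 0.05. Libraries held 26668974 to 35351792 counts, of which the 37 genes took 0.353% to 0.505%. Among the members, counts in a library ran from 141 for Psmd10 to 8506 for Psmd2, and every member other than Psmd10 had at least 565. Levels were not compared between genes, since counts were not scaled by gene length.

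Markers of cell types and brain regions differed between libraries, within groups as well as between them. The summed level of 8 neuron markers was 8164 to 10372 CPM in Sham and 5686 to 6830 CPM in AD. It was 2590, 3315 and 1669 CPM in AD-HFD-1, AD-HFD-2 and AD-HFD-4 but 7179 CPM in AD-HFD-3. Snap25 weighed most in this sum, with means of 3786 CPM in Sham and 2346 CPM in AD. The means of Eno2 were 595 and 576 CPM and those of Nefl 829 and 936 CPM. In AD against Sham none of the 8 was called, 7 had fold changes below 0 and 1 above. The summed level of 7 microglia markers was 165 to 175 CPM in Sham, 225 to 301 CPM in AD and 265 to 479 CPM in AD-HFD, lowest of the diet group in AD-HFD-3. The list was split, since P2ry12 went the other way, with 295 to 388 counts in Sham libraries and 67 to 146 in AD-HFD. The 4 red blood cell markers summed to 72.3 to 186 CPM in Sham and to 644, 424, 132 and 2313 CPM in AD-HFD-1 to AD-HFD-4. The 4 endothelial markers summed to 175 to 188 CPM in Sham, to 698 CPM in AD-3 and 271 to 305 CPM in the other AD libraries, and to 509 to 1385 CPM in AD-HFD. Among the endothelial markers Cldn5 was at 0 in 10 of the 12 libraries. The 8 thalamus markers summed to 60.3 to 137 CPM in 9 libraries, and to 1900 CPM in AD-1, 636 CPM in AD-2 and 1347 CPM in AD-4. The 7 cerebral cortex markers went the other way in AD. They summed to 2880 to 3567 CPM in Sham and to 452, 117, 1606 and 304 CPM in AD-1 to AD-4. In AD-HFD-1 to AD-HFD-4 they summed to 582, 901, 2421 and 537 CPM. The 5 choroid plexus markers summed to 4544, 4485 and 10238 CPM in Sham-2, Sham-3 and AD-HFD-1 and to 517 CPM in AD-HFD-2, against 3.48 to 13.4 CPM elsewhere. The labels give no brain region, and whether the region differed between libraries was not tested. In such bulk tissue, fewer cells of a type and less RNA per cell cannot be told apart. The part of these differences in the results was not tested.

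Among the 37 genes, 5 were called higher in AD-HFD against Sham in all 12 fits that left out 1 library and under 10 other alternatives at the same threshold. Fits with chosen libraries as the only ones of a group are not among these 10 and are given below. The 250 bases before the start sites of the 5 genes are shown so that the letters discussed below can be seen. The sequences are those of RefSeq on GRCr8, read 5' to 3' on the gene's own strand, and end at the base before the start. They lie at chr15:33038721-33038970 on the plus strand for Psme1, chr15:33052752-33053001 on the minus strand for Psme2, chr3:38548491-38548740 on the minus strand for Psmd5, chr12:39018265-39018514 on the minus strand for Psmd9 and chr14:108706393-108706642 on the plus strand for Psme4. Capitals mark every match to 4 motifs searched on both strands: TGACNNNGC, the core of the antioxidant response element that NFE2L1 and NFE2L2 bind, CCAAT, the CCAAT box, GAAANNGAA, a core bound by interferon regulatory factors, and TTCNNNGAA, the gamma-activated site.
Psme1: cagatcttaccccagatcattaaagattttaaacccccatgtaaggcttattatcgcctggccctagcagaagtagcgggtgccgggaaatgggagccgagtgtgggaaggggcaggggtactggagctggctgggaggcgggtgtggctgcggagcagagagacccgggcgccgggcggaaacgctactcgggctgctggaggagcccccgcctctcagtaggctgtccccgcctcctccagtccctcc
Psme2: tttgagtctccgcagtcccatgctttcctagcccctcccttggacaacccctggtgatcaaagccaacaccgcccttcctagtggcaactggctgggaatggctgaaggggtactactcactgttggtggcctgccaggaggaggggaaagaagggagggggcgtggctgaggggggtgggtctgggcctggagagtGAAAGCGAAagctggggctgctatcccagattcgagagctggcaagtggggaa
Psmd5: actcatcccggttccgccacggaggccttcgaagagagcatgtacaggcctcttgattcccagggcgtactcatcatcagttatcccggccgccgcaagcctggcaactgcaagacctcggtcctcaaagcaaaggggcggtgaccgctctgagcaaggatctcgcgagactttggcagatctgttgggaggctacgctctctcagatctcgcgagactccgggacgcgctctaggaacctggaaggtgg
Psmd9: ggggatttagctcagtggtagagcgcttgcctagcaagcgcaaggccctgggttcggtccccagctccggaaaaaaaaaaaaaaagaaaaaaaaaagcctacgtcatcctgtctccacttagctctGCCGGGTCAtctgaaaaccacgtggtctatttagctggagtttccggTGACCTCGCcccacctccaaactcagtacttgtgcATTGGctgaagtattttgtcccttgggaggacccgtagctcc
Psme4: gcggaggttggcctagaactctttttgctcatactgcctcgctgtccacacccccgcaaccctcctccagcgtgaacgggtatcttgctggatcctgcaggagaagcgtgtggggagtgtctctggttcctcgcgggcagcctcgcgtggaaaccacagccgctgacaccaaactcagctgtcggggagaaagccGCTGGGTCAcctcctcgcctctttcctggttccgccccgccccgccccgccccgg

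The 2 partners of the 11S ring differed in these letters. Psme2 held GAAAGCGAA on its own strand at bases 53 to 45 before the start, and Psme1 held no match to any of the 4 motifs. Psmd9 held the antioxidant response core at bases 124 to 116, on the reverse strand, and at bases 77 to 69, and a reverse CCAAT box at bases 42 to 38. Psme4 held the antioxidant response core at bases 55 to 47, on the reverse strand, and Psmd5 held none of the 4. Of the 37 genes, 33 had a start site in the table (Psma7, Psmd6, Psmd12 and Psmd14 were not matched). For each of the 33 the first listed start was searched, while the shares over all promoters count every entry of the table. The antioxidant response core was found before 6 of the 33 (18.2%), namely Psmb2, Psmb5, Psmb6, Psmd1, Psmd9 and Psme4, and before 10.1% of all 33469 promoters of the table. The CCAAT box was found before 16 of the 33 (48.5%) and before 34.0% of all promoters. The interferon regulatory factor core was found before 6 of the 33 (18.2%), namely Psma4, Psmb2, Psmb3, Psmd7, Psmd11 and Psme2, against 8.12% of all promoters, and the gamma-activated site before 3 (9.09%) against 7.67%. Of the 3 immunoproteasome subunits, Psmb10 held 3 matches to the interferon regulatory factor core, 2 of which overlap each other, and Psmb8 held 1 gamma-activated site. The 2 interferon motifs were chosen after the values of Psme1 and Psme2 had been seen. A match to so few letters describes the sequence and does not show that a factor binds it.

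In AD-HFD 3 activators, 2 assembly chaperones and 6 genes of the core and cap rose above Sham, and 1 ATPase gene, Psmc5, fell. The activators Psme1 and Psme2 rose by the largest amounts. AD-HFD and Sham differ in both the AD model and the diet, and this comparison cannot tell the 2 apart. In AD-HFD against Sham 11 of the 37 genes were called higher (29.7%), where 19.7% of all genes tested were, and 1 was called lower (2.7%), where 12.9% of all genes were. The median SE was 0.141 over the 37 genes and 0.315 over all genes tested. A shift of a given size was thus more readily called among the 37, which limits the comparison of these shares. By libraries alone, 16 of the 37 had all 4 AD-HFD libraries above all 4 Sham libraries, against 18.9% of all genes tested, and 1 had them all below, against 16.2%. The fold change was above 0 for 34 of the 37 genes (91.9%), against 51.6% of all genes tested, and for 31 to 35 under 3 other scalings of the libraries. The median log2 fold change was 0.27 over the 37 genes and 0.03 over all genes tested, and under the other scalings 0.23 to 0.34 over the 37 genes and -0.01 to 0.10 over all. The summed level of the 37 genes was 3722 to 3918 CPM in Sham, 3653 to 4314 CPM in AD and 4649, 4367, 3963 and 5279 CPM in AD-HFD-1 to AD-HFD-4, so that every AD-HFD library lay above every Sham library and AD overlapped both. AD-HFD-4 was the highest library of its group for 27 of the 37 genes and AD-HFD-3 the lowest for 27.

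**Figure D1:**
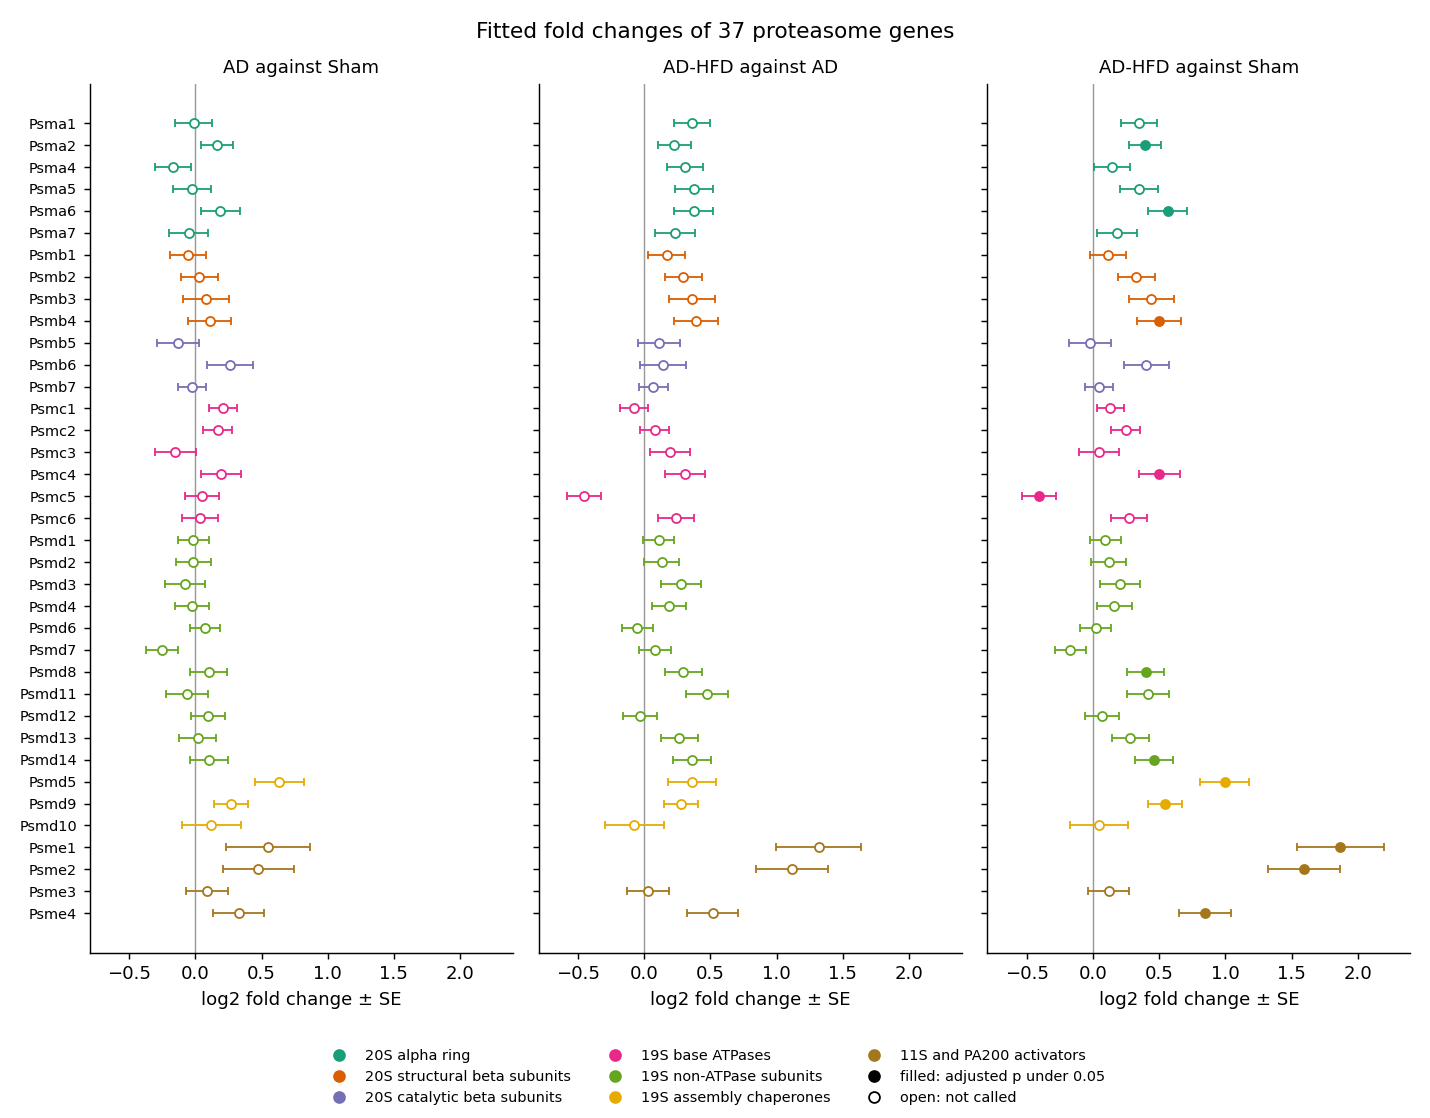
Fitted log2 fold change of each of the 37 proteasome genes (horizontal axis, with SE as the bar) in the 3 comparisons, from 12 libraries with 4 in each group. Genes are ordered by their place in the complex and coloured by it, and filled points mark an adjusted p under 0.05: 12 points are filled, all in AD-HFD against Sham, 11 of them to the right of 0.

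Of the 4 activators, 3 rose in AD-HFD against Sham, where 19.7% of all genes tested were called higher. Psme1, the alpha subunit of the 11S ring, was at 25.5, 34.2, 29.4 and 28.1 CPM in the Sham libraries 1 to 4, at 25.3, 36.1, 57.4 and 52.7 CPM in the AD libraries, and at 119.5, 98.3, 51.1 and 159 CPM in the AD-HFD libraries, in the order of their numbers here and below. Its AD-HFD libraries all lay above Sham, AD-1 and AD-2 lay close to the Sham values, and AD-HFD-3 lay within the range of AD. Psme1 rose by a log2 fold change of 1.87 ± 0.328 in AD-HFD against Sham (edgeR's quasi-likelihood test, Benjamini-Hochberg adjusted p = 0.00356). Psme2, which encodes the beta subunit that assembles with it, followed the same order of libraries within AD-HFD. It was at 18.5, 21.4, 21.2 and 18.9 CPM across the Sham libraries, at 21.5, 26.1, 33.4 and 30.3 CPM in the AD libraries, and at 60.9, 55.8, 31.0 and 93.6 CPM in AD-HFD. Every AD library lay above every Sham library, AD-1 only narrowly, and AD-HFD-3 lay inside the AD range. Psme2 rose by 1.59 ± 0.274 (edgeR, adjusted p = 0.00333). Psme1 and Psme2 together took 1.12% to 1.49% of the counts of the 37 genes in Sham libraries, 1.28% to 2.10% in AD and 3.88%, 3.53%, 2.07% and 4.79% in AD-HFD-1 to AD-HFD-4. The 11S genes rose relative to the core genes: Psme1 counts per 100 counts of the 6 alpha ring genes averaged 5.18 ± 0.914 in Sham libraries, 7.35 ± 2.02 in AD and 14.5 ± 4.28 in AD-HFD (SD, n = 4 each), and no AD-HFD library fell within the Sham range.

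Psme4, the PA200 activator, was at 54.7, 68.6, 55.6 and 47.7 CPM across the Sham libraries, at 70.3, 55.5, 92.5 and 65.7 CPM in the AD libraries, and at 125, 98.0, 75.9 and 107 CPM in AD-HFD. AD overlapped both of the other groups, while AD-HFD and Sham were apart. Psme4 rose by 0.84 ± 0.194 in AD-HFD against Sham (edgeR, adjusted p = 0.0091). Psme3, the nuclear PA28 gamma, did not pass the test: its means were 112 ± 5.04 CPM in Sham, 119 ± 28.6 CPM in AD and 122 ± 12.1 CPM in AD-HFD (SD, n = 4 each), with a log2 fold change of 0.12 ± 0.158 in AD-HFD against Sham (adjusted p = 0.594). The highest Psme3 level of all was in AD-3, at 162 CPM. The 4 activators ranged from a fold change near 0 to the largest of the 37.

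**Figure D2:**
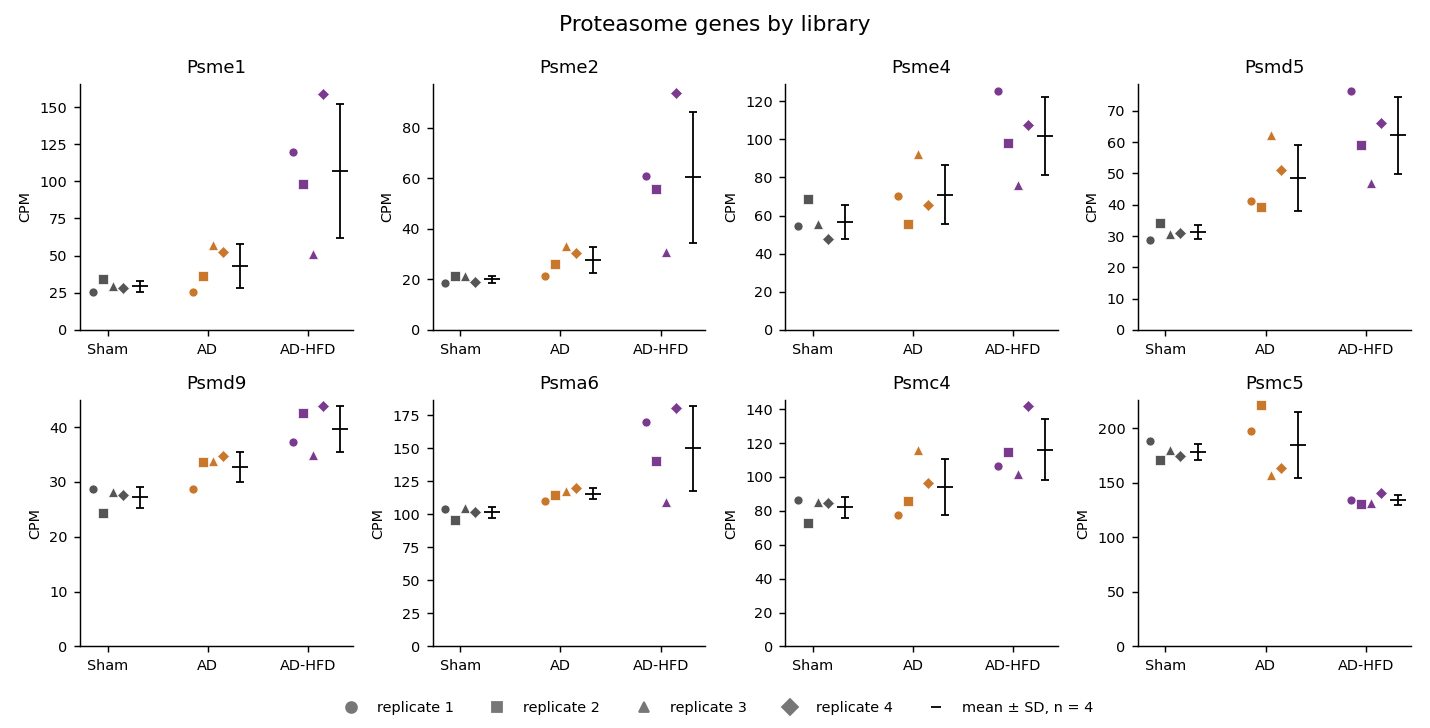
Level in CPM (vertical axis, from 0) of 8 proteasome genes in each library of the 3 groups, with a marker shape for each replicate number and the mean ± SD of 4 libraries as the bar. AD-HFD-3, the triangle of the diet group, is the lowest AD-HFD point for Psme1, Psme2, Psme4, Psmd5, Psmd9, Psma6 and Psmc4, and Psmc5 is the only panel in which the AD-HFD points lie below both other groups.

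The chaperones that build the ATPase ring of the cap split in the same way. In AD-HFD against Sham 2 of 3 were called higher, against 19.7% of all genes tested. Psmd5, also known as S5b, holds part of the ATPase ring before it joins the core. It was at 28.9, 34.3, 30.8 and 30.8 CPM across the Sham libraries, at 41.3, 39.2, 62.2 and 51.1 CPM in the AD libraries, and at 76.3, 59.2, 47.0 and 66.2 CPM in AD-HFD. Both AD and AD-HFD lay wholly above Sham and overlapped each other. Psmd5 rose by 0.99 ± 0.183 in AD-HFD against Sham (edgeR, adjusted p = 0.00401). Psmd9, also known as p27, binds another pair of the ATPases during assembly. It was at 28.6, 24.3, 28.1 and 27.6 CPM across the Sham libraries, at 28.6, 33.6, 33.9 and 34.8 CPM in the AD libraries, and at 37.3, 42.6, 34.9 and 43.9 CPM in AD-HFD. The AD-HFD libraries lay above every Sham and every AD library, the latter by the gap between AD-HFD-3 and AD-4, and Psmd9 rose by 0.55 ± 0.129 against Sham (edgeR, adjusted p = 0.0101). Psmd10, also known as gankyrin, had the fewest counts of the 37 genes, and its mean was 6.14 ± 1.26 CPM in Sham, 6.68 ± 1.58 CPM in AD and 6.34 ± 0.305 CPM in AD-HFD (SD, n = 4), a log2 fold change of 0.04 ± 0.222 in AD-HFD against Sham (adjusted p = 0.89). Psmd5 counts amounted to 3.59% ± 0.379 of the counts of the 6 ATPase genes in Sham libraries, 5.26% ± 1.03 in AD and 6.64% ± 1.08 in AD-HFD (SD, n = 4), with AD and AD-HFD each above every Sham library.

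Of the 6 ATPase genes, 1 rose, 1 fell and 4 were not called in AD-HFD against Sham. Both shares were near those of all genes tested, 19.7% called higher and 12.9% lower. Psmc5 (Rpt6), a subunit of the ATPase ring, was at 188, 171, 179.8 and 175 CPM across the Sham libraries, at 198, 221, 157 and 164 CPM in the AD libraries, and at 135, 130.3, 132 and 141 CPM in AD-HFD. The 4 AD-HFD libraries were close to each other and all lower than any library of the other groups, AD-HFD-3 included. Psmc5 fell by 0.41 ± 0.128 on the log2 scale in AD-HFD against Sham (edgeR's quasi-likelihood test, Benjamini-Hochberg adjusted p = 0.0309). Among other settings, the call was lost when AD-HFD-1, AD-HFD-2 or any 1 of Sham-1, Sham-3 and Sham-4 was left out (adjusted p up to 0.0926 over these fits), with no filter on low counts, and with libraries scaled to total counts (adjusted p = 0.0613). As a share of the counts of the 6 ATPase genes, which does not depend on how libraries are scaled, Psmc5 made up 20.7%, 20.5%, 20.8% and 19.9% in Sham, 21.9%, 24.2%, 16.5% and 18.0% in AD, and 14.3%, 14.6%, 15.6% and 13.3% in AD-HFD. The diet group again lay below every library of both other groups.

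Psmc4 (Rpt3) went the other way, with means of 82.1 ± 6.31 CPM in Sham, 93.9 ± 16.5 CPM in AD and 116 ± 17.9 CPM in AD-HFD (SD, n = 4). All 4 AD-HFD libraries, at 102 to 142 CPM, lay above Sham, at 72.8 to 86.3 CPM, and Psmc4 rose by 0.50 ± 0.154 (edgeR, adjusted p = 0.0286). Leaving out AD-HFD-2, AD-HFD-4 or any Sham library ended the call (adjusted p up to 0.111). Its share of the ATPase counts was 8.70% to 9.86% in the Sham libraries and 11.3% to 13.4% in the AD-HFD libraries. Psmc1, Psmc2, Psmc3 and Psmc6 were not called, and Psmc1 is given below for AD.

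In the 20S core 2 alpha ring genes and 1 structural beta gene passed the test in AD-HFD against Sham, all higher, and no catalytic gene did. Of all genes tested, 19.7% were called higher in that comparison. The median log2 fold change was 0.35 over the 6 alpha ring genes and 0.38 over the 4 structural beta genes, with all 10 above 0. Psma6, an alpha ring subunit, was at 104, 95.6, 105 and 102 CPM across the Sham libraries, at 110.4, 114, 118 and 120.2 CPM in the AD libraries, and at 170.3, 140.1, 109 and 180.4 CPM in AD-HFD. AD lay wholly above Sham, and AD-HFD-3 lay below all 4 AD libraries while the other AD-HFD libraries lay above them. Psma6 rose by 0.56 ± 0.149 (edgeR, adjusted p = 0.0159), a call lost without Sham-2 (adjusted p = 0.0609). Psma2, also of the alpha ring, rose by 0.39 ± 0.123 (edgeR, adjusted p = 0.031) from 72.1 to 75.4 CPM in Sham to 79.9 to 113 CPM in AD-HFD, and lost the call, among other settings, with no filter on low counts and without any 1 of the 4 Sham libraries, AD-HFD-1, AD-HFD-2 or AD-HFD-4 (adjusted p up to 0.105). Of the 4 structural beta genes, Psmb4 was called, at 0.50 ± 0.165 (edgeR, adjusted p = 0.0379), from 118 to 141 CPM in Sham to 154 to 224 CPM in AD-HFD. It lost the call in the settings listed for Psma2 and without AD-4 (adjusted p up to 0.109). Psmb4 is named outside the rule for named genes, after its value was seen.

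None of the 3 catalytic genes was called in AD-HFD against Sham. Psmb5, which carries the chymotrypsin-like site, was at 83.8, 90.9, 106 and 107 CPM across the Sham libraries, at 83.4, 99.7, 71.5 and 98.1 CPM in the AD libraries, and at 90.6, 93.4, 79.5 and 118 CPM in AD-HFD, a log2 fold change of -0.02 ± 0.159 (edgeR, adjusted p = 0.928). The 3 groups overlapped. Psmb6, the caspase-like site, had means of 60.5 ± 7.02, 72.4 ± 7.32 and 79.9 ± 19.3 CPM in Sham, AD and AD-HFD (SD, n = 4 each) and a log2 fold change of 0.40 ± 0.172 (adjusted p = 0.0901). It was called higher without AD-HFD-3 (0.52, adjusted p = 0.0191), and without AD-HFD-4 its fold change was 0.24 (adjusted p = 0.273). Psmb7, the trypsin-like site, had means of 143 ± 11.3, 141 ± 4.49 and 148 ± 9.65 CPM and a log2 fold change of 0.04 ± 0.109 (adjusted p = 0.781). Psmb7 varied least of the 37 genes over the 12 libraries, with an SD of 0.0874 in log2 CPM, and Psme1 varied most, with an SD of 0.907.

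The inducible counterparts of these 3 catalytic genes were called in AD-HFD against Sham. All 3 immunoproteasome genes rose: Psmb9 by 2.78 ± 0.526 (edgeR's quasi-likelihood test, Benjamini-Hochberg adjusted p = 0.00433), Psmb8 by 2.65 ± 0.515 (adjusted p = 0.00475) and Psmb10 by 1.41 ± 0.364 (adjusted p = 0.0143). Psmb8, which takes the place of Psmb5, was at 3.27, 5.43, 5.78 and 5.12 CPM across the Sham libraries, at 4.33, 3.65, 13.3 and 9.25 CPM in the AD libraries, and at 34.8, 26.8, 9.63 and 51.9 CPM in AD-HFD. Per 100 counts of Psmb5 there were 3.91 to 5.98 counts of Psmb8 in Sham libraries, 3.66 to 18.6 in AD and 38.4, 28.7, 12.1 and 44.1 in AD-HFD-1 to AD-HFD-4. Per 100 counts of Psmb6, Psmb9 had 3.08 to 7.76 counts in Sham, 3.60 to 11.9 in AD and 10.3 to 32.8 in AD-HFD. Per 100 counts of Psmb7, Psmb10 had 7.07 to 10.1 counts in Sham, 8.04 to 18.0 in AD and 12.9 to 38.4 in AD-HFD. In all 3 pairs every AD-HFD library lay above every Sham library, and AD-HFD-3 lay below AD-3, the highest AD library. These ratios are of counts not scaled by gene length, so they show change between libraries and not the share of assembled proteasomes. Of the 7 microglia markers 5 were called higher and 1, P2ry12, lower (-1.59) in the same comparison. In it 4 of 4 red blood cell and 3 of 3 tested endothelial markers were called higher. Of the 8 neuron markers 5 were called lower. Over all genes tested, 19.7% were called higher and 12.9% lower.

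**Figure D3:**
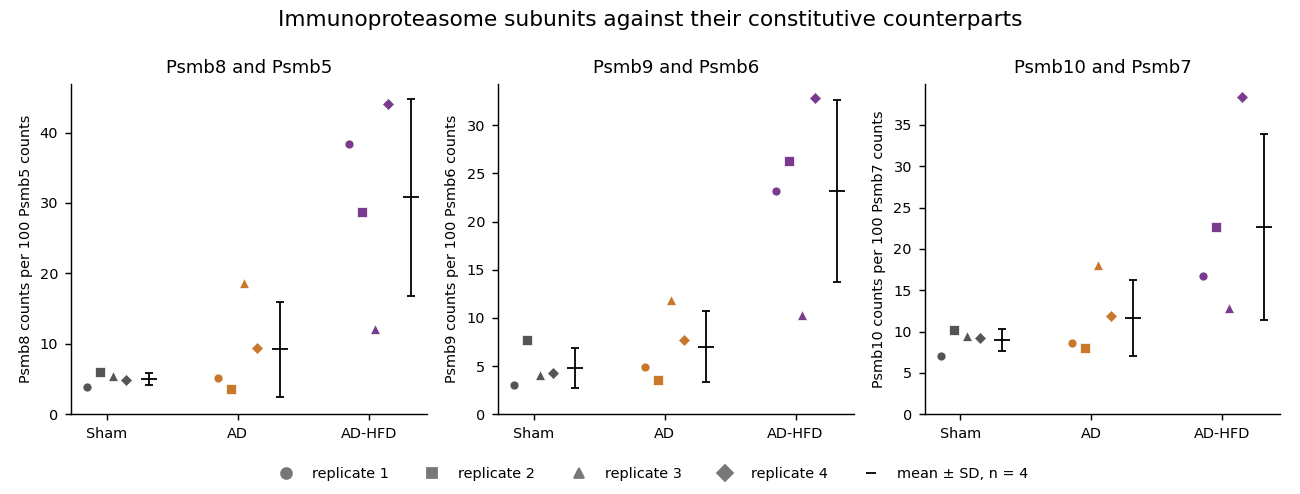
Counts of each immunoproteasome subunit per 100 counts of the constitutive subunit it replaces (vertical axes, from 0), by library, with the mean ± SD of 4 libraries as the bar. AD-3 is the highest AD point and AD-HFD-3 the lowest AD-HFD point in every panel, and for Psmb8 the AD-HFD libraries run from 12.1 to 44.1 against 3.91 to 5.98 in Sham.

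Of the 11 non-ATPase subunits of the cap, 2 were called higher in AD-HFD against Sham and none lower, with a median log2 fold change of 0.16. Over all genes tested, 19.7% were called higher and 12.9% lower, so the share called higher was near that of all genes. Psmd14 (Rpn11), the enzyme that cuts ubiquitin chains from substrates, was at 77.1, 77.9, 70.4 and 86.6 CPM across the Sham libraries, at 73.1, 78.9, 100.4 and 82.0 CPM in the AD libraries, and at 121, 102, 88.4 and 118 CPM in AD-HFD. AD-HFD lay above Sham, AD-HFD-3 only narrowly, and Psmd14 rose by 0.46 ± 0.145 (edgeR, adjusted p = 0.0304). The call was lost, among other settings, with no filter on low counts and without AD-HFD-1, AD-HFD-2, AD-HFD-4 or any Sham library but Sham-4 (adjusted p up to 0.0948). Psmd8 (Rpn12), named after its value was seen, rose by 0.40 ± 0.139 (edgeR, adjusted p = 0.0463), the weakest call of the 12. It was lost, among other settings, with DESeq2 size factors, upper quartile scaling, no filter or the legacy method, and without AD-2, AD-4, AD-HFD-1, AD-HFD-2, AD-HFD-4 or any Sham library (adjusted p up to 0.19). Psmd4 (Rpn10), a ubiquitin receptor of the cap, was not called, with means of 106 ± 4.99, 105 ± 11.9 and 119 ± 15.9 CPM in Sham, AD and AD-HFD (SD, n = 4 each) and a log2 fold change of 0.16 ± 0.13 (adjusted p = 0.356). Psmd7 (Rpn8), the partner of Psmd14, had the lowest value of the cap's non-ATPase genes, at -0.17 ± 0.119 (adjusted p = 0.272). The cap as a whole had 169 to 186 counts per 100 counts of the 20S core in Sham libraries, 167 to 187 in AD and 155, 160.3, 179.6 and 153 in AD-HFD-1 to AD-HFD-4, so that only AD-HFD-3 was inside the range of the other groups.

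**Figure D4:**
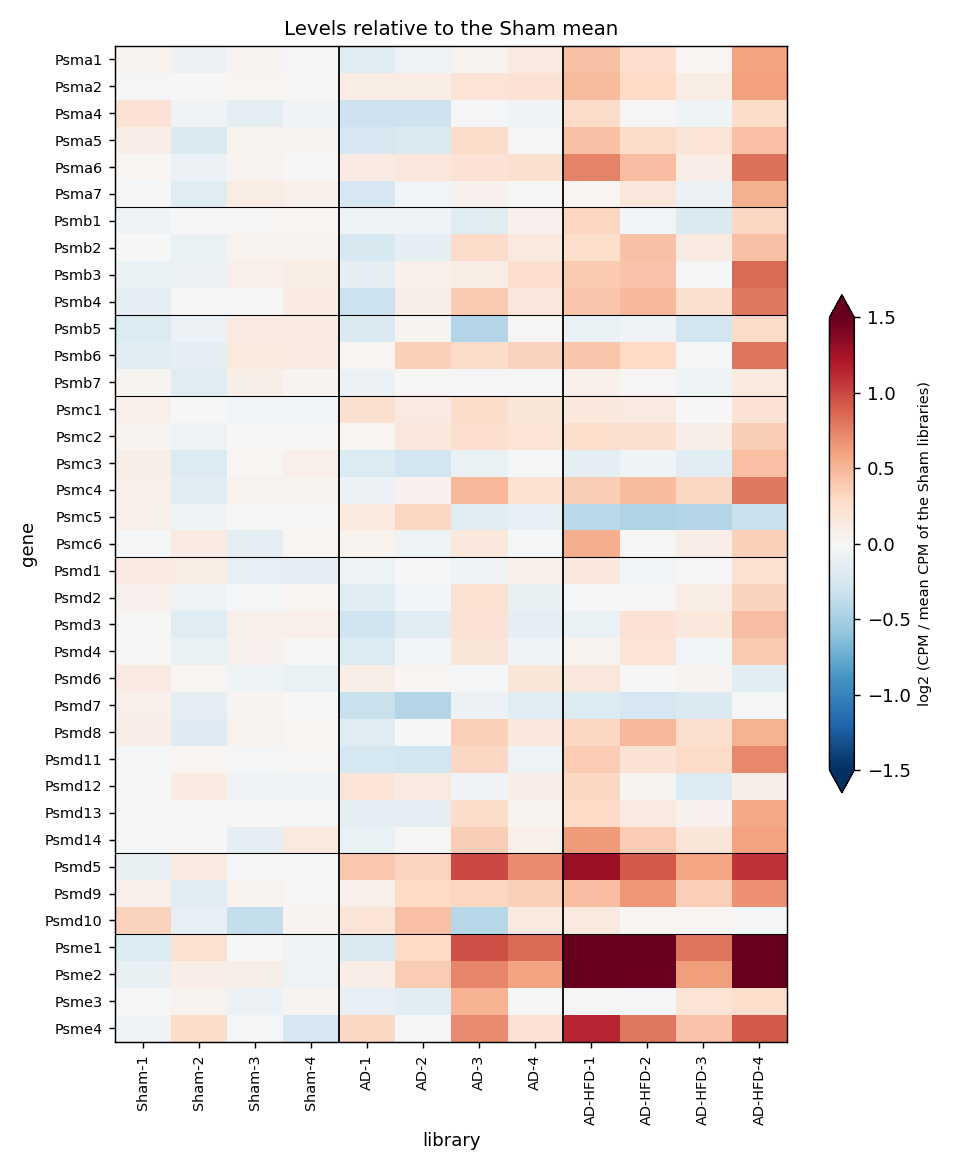
Level of each of the 37 genes (rows, in the order of the subunit groups) in each of the 12 libraries (columns), as the log2 ratio to the mean CPM of the 4 Sham libraries, with colours cut at -1.5 and 1.5. Psme1, Psme2, Psme4 and Psmd5 are the darkest red in AD-HFD-1, AD-HFD-2 and AD-HFD-4, AD-HFD-3 is pale in most rows, and Psmc5 is blue in all 4 AD-HFD libraries.

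In AD against Sham no proteasome gene passed the test. None of the 37 was called higher, where 3.07% of all genes tested were, and none was called lower, where 3.16% were (edgeR's quasi-likelihood test). An unadjusted p under 0.05 was reached by 1 of the 37 (2.7%, against 24% of all genes tested). DESeq2 called 2 of the 37, Psmd5 and Psmc1, both higher (5.41%, against 13.8% of all genes tested in either direction). The AD libraries lay wholly above Sham for 5 of the 37 genes (13.5%, against 10.3% of all genes tested), namely Psma2, Psma6, Psmc1, Psmd5 and Psme2, and wholly below for none (against 11.3%). The fold change was above 0 for 23 of the 37, against 54.9% of all genes tested, and the median was 0.07 against 0.06. Psmd5, the ATPase chaperone, was closest to a call, at 0.64 ± 0.182 (edgeR, adjusted p = 0.0596). Its adjusted p ran from 0.0297 to 0.149 over the fits without 1 library. It passed without AD-2 or AD-HFD-3 (adjusted p = 0.0472 and 0.0297) and with AD-3 as the only AD library (0.99, adjusted p = 0.0421), where the lone library is assumed to vary like the other groups. Next among the higher genes came Psmd9 at 0.27 ± 0.129 (adjusted p = 0.230) and Psmc1 (Rpt2) at 0.21 ± 0.105 (adjusted p = 0.249). Psmc1 was at 182 to 198 CPM in Sham and 206 to 227 CPM in AD, without overlap. On the lower side the smallest p-values were those of Psmd7, at -0.25 ± 0.119 (adjusted p = 0.217), the alpha subunit Psma4, at -0.17 ± 0.136 (adjusted p = 0.485), and the ATPase Psmc3 (Rpt5), at -0.15 ± 0.153 (adjusted p = 0.586). Within AD, AD-3 was the highest library for 22 of the 37 genes and AD-1 the lowest for 23. In the same comparison 6 of 8 thalamus markers and 2 of 7 microglia markers were called higher and 3 of 7 cerebral cortex markers were called lower.

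In AD-HFD against AD, which compares the diet within the AD model, most fold changes were above 0, but none of the 37 was called higher (against 0.0106% of all genes tested) or lower (against 0%) by edgeR's quasi-likelihood test. An unadjusted p under 0.05 was reached by 11 of the 37 (29.7%), a share near the 30.5% of all genes tested, and DESeq2 called 4 (10.8%, against 17.6%). Fold changes were above 0 for 32 of the 37 genes (86.5%, against 52.6% of all genes tested), with a median of 0.24 against 0.04. At an adjusted p under 0.1, 3 of the 37 were higher (8.11%, against 10.4% of all genes) and 1 was lower (2.7%, against 7.8%). These were Psme2 at 1.12 ± 0.270 (adjusted p = 0.0605), Psme1 at 1.32 ± 0.323 (adjusted p = 0.0605), Psmd11 at 0.48 ± 0.159 (adjusted p = 0.0836) and, lower, Psmc5 at -0.46 ± 0.128 (adjusted p = 0.063). Psmd11 (Rpn6), a scaffold of the cap, was at 76.7, 75.6, 114 and 87.7 CPM in AD and at 120.3, 107, 112 and 153 CPM in AD-HFD, so that only AD-3 lay inside the AD-HFD range. Psmd9 was the only gene of the 37 with all AD-HFD libraries above all AD libraries (against 2.72% of all genes tested) and Psmc5 the only one with all below (against 2.74%). The other members with the smallest p on the lower side were Psmc1, at -0.08 ± 0.105 (adjusted p = 0.627), and Psmd6 (Rpn7), at -0.05 ± 0.116 (adjusted p = 0.779).

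These counts depended on single libraries. Without AD-3, 11 of the 37 genes were called higher in AD-HFD against AD (29.7%, against 18% of all genes tested) and 1, Psmc5, lower (2.7%, against 12.3%). Without AD-HFD-3, 8 were called higher (21.6%, against 14.8%) and again Psmc5 lower (2.7%, against 12.8%). In both fits calls became more frequent among all genes as well as among the 37. Psme1, Psme2, Psme4, Psmd11 and Psmd14 were called higher in both fits. With AD-HFD-3 as the only diet library, a choice made after the data were seen, the log2 fold change against Sham was 0.80 for Psme1, 0.63 for Psme2 and -0.44 for Psmc5, and 0.97 for Psmb8, 1.09 for Psmb9 and 0.45 for Psmb10. In that fit the lone library is assumed to vary like the other groups and 0.102% of all genes tested were called, so that the absence of calls among these genes says nothing about them. AD-HFD-3 was also the diet library with neuron, microglia and red blood cell marker sums nearest to those of Sham. Its 7 cerebral cortex markers summed to 2421 CPM, against 537 to 901 CPM in the other diet libraries and 2880 to 3567 CPM in Sham. Its 6 oligodendrocyte markers summed to 6404 CPM, below every Sham and AD library (8122 to 44725 CPM) and against 28447 to 46632 CPM in the other diet libraries. The part of these markers in the result was not tested. Psmc5 had a value there like that of the other diet libraries, whereas Psme1 and Psme2 had about the value they had in AD-3 and AD-4. The fold change was above 0 in all 3 comparisons for 18 of the 37 genes and below 0 in all 3 for none; the comparisons share their groups of libraries, so these counts are not independent of each other.

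The other pathway genes described here were not called in AD against Sham or in AD-HFD against AD. The counts that follow stand beside 19.7% of all genes tested called higher and 12.9% called lower in AD-HFD against Sham. In AD-HFD against Sham, neither of the 2 remaining 26S genes tested was called (the ubiquitin receptor Adrm1 stood at 0.42 ± 0.178, adjusted p = 0.0883), and none of 5 chaperones of the 20S core was. Of 9 regulators that bind the proteasome 2 were called higher, Fbxo7 and Txnl1, a share near that of all genes. Usp14, a deubiquitinase that trims chains at the cap, was not called (-0.24 ± 0.166, adjusted p = 0.276). Among 5 genes of the NFE2L1 axis 3 were called higher and 1 lower. The lower one was Nfe2l1 itself, which fell by 0.44 ± 0.14 on the log2 scale (edgeR, adjusted p = 0.0332), from 136 to 161 CPM in Sham to 94.2 to 127 CPM in AD-HFD. The call was lost, among other settings, with total counts, with no filter, and without AD-1, AD-HFD-1, AD-HFD-2, AD-HFD-4 or any Sham library but Sham-2 (adjusted p up to 0.115). Nfe2l2, the related factor of the oxidative stress response, rose by 1.77 ± 0.355 (edgeR, adjusted p = 0.00529) from 24.8 to 39.9 CPM in Sham to 119, 81.9, 39.6 and 169 CPM in the AD-HFD libraries. Its AD-HFD-3 value lay just inside the Sham range. Of 9 genes of p97 and the shuttle factors that bring substrates to the cap, 1 was called: Ubqln2, a shuttle factor, fell by 0.74 ± 0.187 on the log2 scale (edgeR, adjusted p = 0.0135). It was at 186 to 208 CPM in Sham and at 115, 111, 159.6 and 83.0 CPM in AD-HFD.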

How the data were processed

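The authors deposited 1 table of raw read counts per gene for the 12 brain libraries, with 22050 rat Ensembl genes and 9127 new loci. TRIzol extraction and an mRNA library kit from Yeasen were used, per the labels' protocols. FastQC and Trimmomatic are named in the submitters' processing notes. The aligner, counting program, strand setting and build are not given in the sources used here. Some proteasome genes have processed pseudogenes of near-identical sequence, and how reads were divided between copies is not known.

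Counts were analysed with edgeR 4.0.16 in R 4.3.3: filterByExpr on the groups, TMM scaling, and 1 quasi-likelihood fit (non-legacy) with 1 mean per group over all 12 libraries, with calls at an adjusted p (Benjamini-Hochberg) under 0.05. The SE is the size of the log2 fold change divided by the square root of F. CPM use TMM-scaled library sizes. The alternatives were DESeq2 1.42.0, limma 3.58.1 voom, other scalings and filters, other thresholds, a block on the replicate number, a fit of only the groups compared, and fits without 1 library. The legacy fit, fits on chosen AD or AD-HFD libraries and 2 motifs were added once the data had been seen.

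The members and lists were chosen with earlier results of these data known. Members were named by this rule: per comparison those called, at most the 10 smallest p, or the 3 smallest p in a direction with fewer than 3 calls, and always the catalytic genes, the activators, Psmd4 and Psmd14. Of the pathway genes, Psmb8, Psmb9, Psmb10, Nfe2l1, Adrm1 and Usp14 were always named, and at most the 5 called with the smallest p. Fbxo7 and Txnl1 were named after their values were seen. 1 list of pathway genes is not reported here. Promoters came from RefSeq's GRCr8 table by symbol. No library pair agreed within sampling noise. Tested on simulated counts with known changes, the test missed most of the smaller ones, and false calls were more frequent than the threshold names in AD against Sham and AD-HFD against AD.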

Additional observations from a re-analysis of the deposited data

Results flagged for a closer look

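In 2 of 114 groups of 4 libraries, 1 library lay apart from the other 3 by more than Dixon's 95% limit, where chance alone gives about 1 in 20. Psmc4 (Rpt3) was at 72.75 CPM in Sham-2 and at 84.4 to 86.3 CPM in the other Sham libraries. Psmc3 (Rpt5) was at 231.21 CPM in AD-HFD-4 and at 152.07 to 162.01 CPM in the other AD-HFD libraries, which lay within the Sham range of 147 to 180.0 CPM.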

How the results depend on the processing

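In AD-HFD against Sham the 12 calls became 7 with no filter, 19 at an adjusted p under 0.1, 4 at 0.01 (6162 genes became 2174) and 0 with AD-HFD-3 as the only diet library (21 genes, median 0.0849). Leaving out 1 library gave 6 to 18 members and 3514 to 8615 genes. In AD against Sham DESeq2 called 2 members and 2600 genes in place of 0 and 1174. Psmd5 alone was called with upper quartile scaling, at an adjusted p under 0.1 (2343 genes), with only the 2 groups compared (2363 genes) and with AD-3 as the only AD library (median 0.21), and 198 genes passed 0.01. Leaving out 1 library gave 0 to 1 members and 302 to 2329 genes. In AD-HFD against AD DESeq2 called 4 members and 3310 genes in place of 0 and 2, a threshold of 0.1 gave 4 and 3422, and 0.01 gave 0 genes. Only the 2 groups compared gave 0 genes, as did AD-3 alone (median 0.11). The pair of AD-HFD-1 and AD-HFD-2 gave 2 members and 1898 genes, and AD-HFD-3 alone a median of 0.0574. Leaving out 1 library gave 0 to 12 members and 0 to 5841 genes. The fit on AD-HFD-3 alone called few genes of any kind, so a missing call there shows nothing about a member. The cause of these shifts was not tested.

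Same-numbered libraries did not deviate together (correlations of -0.317 to 0.0947), so the numbers were not taken as pairs. With the replicate block 8 members and 5156 genes were called in AD-HFD against Sham, 0 and 851 in AD against Sham, and 0 and 5 in AD-HFD against AD.

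Each reversal in sign was of a gene that was not called. In AD-HFD against Sham, Psmb7 was -0.000645 with upper quartile scaling and -0.081 with AD-HFD-3 alone, and without 1 library it was -0.082 to 0.0795. Psmb5 was 0.0419 with total counts and -0.139 to 0.0544 without 1 library. Psmd10 was -0.067 to 0.176 without 1 library. Psmb6 (-0.0316) and Psmd4 (-0.0472) reversed with AD-HFD-3 alone and Psme3 (-0.011) with AD-HFD-1 and AD-HFD-2. In AD-HFD against AD, Psmd6 was 0.00411 with total counts, 0.0445 with AD-3 alone, 0.0202 with AD-HFD-1 and AD-HFD-2, and -0.107 to 0.00517 without 1 library. Of 1014 combinations of a named gene and a setting, changes of threshold included, 867 kept direction and side of the threshold. The call was lost in 98, gained in 30, and the sign reversed in 19. Genes not called in the main fit count as kept where they stayed uncalled. Of the 12 calls of members, 5 were kept in every fit without 1 library. With total counts Adrm1 was called (adjusted p = 0.0459). The replicate block ended the calls of Psma2, Psmc5, Psmd8, Psmd14 and Nfe2l1. With 4 libraries a group, a missing call does not show that a gene was unchanged.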
